A study of Mus musculus with 2 samples.

Results

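The cells described here were natural killer (NK) cells and group 1 innate lymphoid cells (ILC1s) of the kidneys of MRL-lpr mice. They were chosen by their unique molecular identifiers (UMIs, each standing for 1 captured transcript): at least 1 UMI in 2 or more of the 5 genes Ncr1, Klrb1c, Eomes, Klre1 and Klra4, and 0 UMIs of Cd3d, Cd3e and Trac. Only barcodes with 200 or more genes and no more than 20% mitochondrial UMIs entered. The rule found 419 cells among 21661 kept barcodes, with 203 of 11429 in the library of young mice and 216 of 10232 in the library of old mice. The experiment had 1 single-cell RNA-seq library per age, each of pooled kidneys, and both ages carried the genotype MRL-lpr, a lupus-prone strain with the lpr mutation of the death receptor gene Fas, so the young mice are an age control and not a healthy strain. The cells had been separated on a density gradient, enriched magnetically for innate lymphoid cells and sorted as live before capture, so a share of a library is not a frequency in the kidney. With 1 library per age no difference between the ages had a replicate check, no test was possible, and all intervals are 95% intervals for counting error alone. The kept barcodes belonged to libraries of 156787812 (young) and 126334256 (old) UMIs, and the members held 1255536 and 1643468 UMIs, with a median of 4642 and 6165.5 per cell. The libraries shared 41 barcodes, which touched 0 young and 2 old members, and Scrublet called 8 and 3 members doublets, which were kept.

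NK cells and ILC1s are lymphocytes without rearranged antigen receptors. Both carry the natural cytotoxicity receptor NKp46 (Ncr1) and depend on T-box transcription factors. Conventional NK cells circulate, use Eomes as well as T-bet (Tbx21), carry the integrin CD49b (Itga2), and kill targets with perforin and granzymes held in secretory granules. ILC1s stay in tissues, carry CD49a (Itga1) and the chemokine receptor CXCR6, often depend on T-bet alone, and act mainly through cytokines such as interferon-γ and the death ligand TRAIL (Tnfsf10). NK cells are held in check by receptors for MHC class I, in the mouse the Ly49 (Klra) and CD94/NKG2 (Klrd1, Klrc1) families.

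Genes outside the rule marked the cells as the rule intended. Nkg7, a granule membrane protein of cytotoxic cells, had a UMI in 98.0% of young and 99.1% of old members. Tyrobp, the adaptor DAP12 of activating NK receptors, had one in 89.7% and 96.8%. With every cell thinned to 1000 UMIs the shares with Tyrobp were 74.9% and 84.0%, against 0.141% and 0.224% in proximal tubule (PT) cells, which should lack it and show the level of free RNA. Fcer1g, the γ chain of Fc receptors, was found in 95.6% and 97.2%, Klrd1 (CD94) in 93.1% and 96.3%, Il2rb, a receptor chain for IL-2 and IL-15, in 93.6% and 91.7%, and Tbx21 in 44.8% and 61.6%. Of the 12 genes of the T cell list Cd5, Cd6 and Cd8b1 had 0 UMIs in the members of either library, while Cd8a had 0 in young and 6 in old members. Transcripts of the T cell receptor β locus, which NK cells can express without rearrangement, were present, as Trbc1 had a UMI in 81.3% of young and 88.9% of old members, and Cd3g had one in 17.2% and 7.9%. Asking also for 0 UMIs of Cd3g, Trbc1 and Trbc2 left 0.192% of young and 0.186% of old kept barcodes, in place of 1.78% and 2.11%. The 10 genes of the ILC2 list held 701 UMIs (558 CPM, in 130 cells) in young and 467 UMIs (284 CPM, in 128 cells) in old members, of which Rora made up 447 and 252 and Gata3 146 and 151, both also genes of NK cells or ILC1s. The ILC2 cytokine genes Il5 and Il13 had 0 UMIs in both libraries and 0 and 1 UMI. Of the ILC3 genes Il17a and Il22 had 0 UMIs in both libraries, Il23r had 1 and 0, and Il1r1 2 and 0. A count of 0 among the members allows a level of up to 2.39 CPM (UMIs per 1000000 UMIs of the class) among young and 1.83 CPM among old members.

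At the edge of the rule, 113 young and 53 old members had exactly 2 of the 5 markers, and their Tyrobp levels were 1235 and 1652 CPM. Just outside it, 134 young and 104 old barcodes had 1 marker and no CD3 UMI, with Tyrobp at 363 and 702 CPM. Barcodes with 2 or more markers and exactly 1 CD3 UMI numbered 23 and 48, and their Tyrobp levels of 1722 and 2274 CPM lay near those of the members (1416 and 2281 CPM). Those with 2 or more CD3 UMIs numbered 23 and 199, and in the old library they held 267 CPM of Cd5 and Cd6 together. The rule markers themselves stood at 1078 (young) and 1568 (old) CPM for Ncr1, 267 and 551 for Klre1, 112 and 162 for Eomes and 191 and 187 for Klrb1c, and Klra4 had a UMI in 1.5% and 3.7% of members. These values chose the cells and are a description.

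The members were 1.78% of kept barcodes (1.54 to 2.04, exact Clopper-Pearson) among the young and 2.11% (1.84 to 2.41) among the old cells. Of barcodes with a UMI of the leukocyte gene Ptprc they were 5.47% (4.75 to 6.25) and 3.58% (3.12 to 4.08). The direction of the difference thus depended on the denominator. The old members were also deeper, which makes 2 markers easier to reach, and with 3 or more markers asked for the share of kept barcodes was 0.787% in the young and 1.59% in the old library.

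Genes of conventional NK cells and of ILC1s divided the members in both libraries. Each member was placed by the share of its UMIs from 9 NK genes (among them Itga2, Itgam, S1pr5, Cx3cr1, Cma1, Zeb2, Irf8 and Klrg1) among the UMIs of those 9 and 7 ILC1 genes (Itga1, Cd200r1, Il7r, Cxcr6, Ltb, Inpp4b, Gpr183), with a cut at 50%. The score added raw UMIs, so genes with many UMIs weighed most in it. Irf8 held 1038 UMIs in young and 2219 in old members, against 96 and 217 for Itgam and 82 and 185 for Itga2. Among the ILC1 genes Ltb stood above Cxcr6, Il7r and Gpr183 in both libraries. The split was chosen after the data were seen, and its sides are ranges of a score, not cell types. In the young library 99 of 203 members (48.8%, 41.7 to 55.9) fell on the NK side and 103 on the ILC1 side, with 1 cell that had none of the UMIs. In the old library 167 of 216 (77.3%, 71.1 to 82.7) fell on the NK side and 49 on the ILC1 side. Few cells lay between, as 7 young and 14 old members had a score from 40 to 60%, while 86 and 30 were under 20% and 85 and 146 were over 80%. The median member had 16 (young) and 24 (old) UMIs of the split genes, which makes the score of a single cell coarse. How far this drew cells to the ends was not tested. Thinned to 1000 UMIs, the NK side held 47.3% (39.8 to 54.8) and 75.9% (69.4 to 81.6). The gap between the ages narrowed among members with 3 or more markers, where the NK side held 78.9% of young and 84.0% of old cells.

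**Figure D1:**
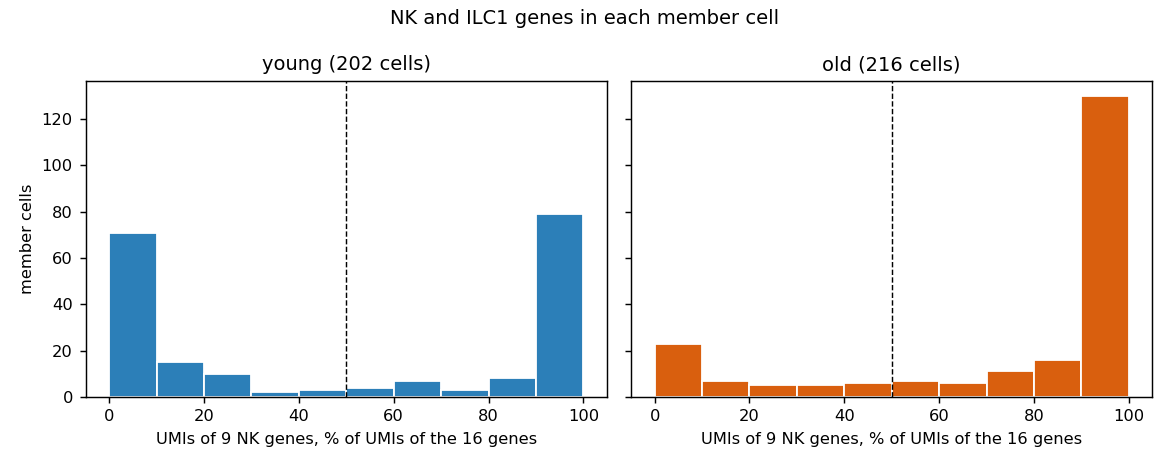
Histograms of the members of the young and of the old library (number of cells, vertical axes) by the percentage of each cell's UMIs of 16 genes that came from the 9 conventional NK genes (horizontal axis), with the cut at 50% as a dashed line. Both libraries have most cells at the ends: 71 young and 23 old cells lie in the lowest bin (0 to 10%) and 79 young and 130 old cells in the highest (90 to 100%).

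Levels of the whole member class moved with this split. All 12 conventional NK genes passed the filter of 100 UMIs over both libraries, and all 12 were higher in the old library, 6 of them by 2-fold or more. Over all 4394 genes that passed, 1.25% were higher in old members by 2-fold or more and 4.92% lower. Their median log2 ratio was -0.04, against 0.91 for the NK genes. The shares of 1.25% and 4.92% are the background for each later count of genes called between the ages over all members. Cx3cr1, a chemokine receptor of patrolling NK cells, stood at 39.0 CPM (28.9 to 51.6) in young and 98.0 (83.4 to 114) in old members, a log2 ratio of 1.33 (0.86 to 1.82). Klrg1, an inhibitory receptor of mature NK cells, stood at 118 and 263 CPM (log2 ratio 1.16). Cma1, a chymase gene, stood at 158 CPM (136 to 181) and 323 (296 to 352). Cx3cr1, Klrg1 and Cma1 are also genes of the split. With 3 or more markers the log2 ratio was 0.85 for Klrg1 and 0.78 for Cma1. The smallest ratio of the list was that of Zeb2, a repressor needed for NK maturation, at 272 and 392 CPM (0.52).

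Of the 18 genes of the ILC1 and tissue residence list 13 passed the filter, none was higher by 2-fold and 4 were lower, with a median log2 ratio of -0.64. Cxcr6 stood at 147 CPM (127 to 170) in young and 63.9 (52.3 to 77.3) in old members, and Il7r, the IL-7 receptor chain, at 139 and 62.7 CPM. In thinned cells Cxcr6 had a UMI in 16.1% of young and 5.63% of old members. With 3 or more markers asked for, the log2 ratios turned from -1.21 to 0.43 for Cxcr6 and from -1.15 to 0.45 for Il7r. This setting kept 90 of 203 young and 163 of 216 old members. The NK side then held 78.9% and 84.0% of them, in place of 48.8% and 77.3%. It thus changed the makeup of the class unevenly, here and for each ratio given with 3 or more markers. The other 2 genes past 2-fold were the neighbours Tmem176a (log2 ratio -1.15) and Tmem176b (-1.13), whose levels in young PT cells, 1036 and 1149 CPM, were above those in members. Ltb, which encodes lymphotoxin β, stood at 910 and 501 CPM (-0.86), and Gpr183, an oxysterol receptor that positions lymphocytes, at 103 and 51.7 (-0.99). With 3 or more markers the log2 ratio of Ltb also changed sign, to 0.17. Other residence genes did not share this direction, since Itga1 stood at 39.0 and 45.6 CPM, Cd69 at 241 and 279, and Rgs1, a brake on chemokine signals, at 890 and 1268.

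**Figure D2:**
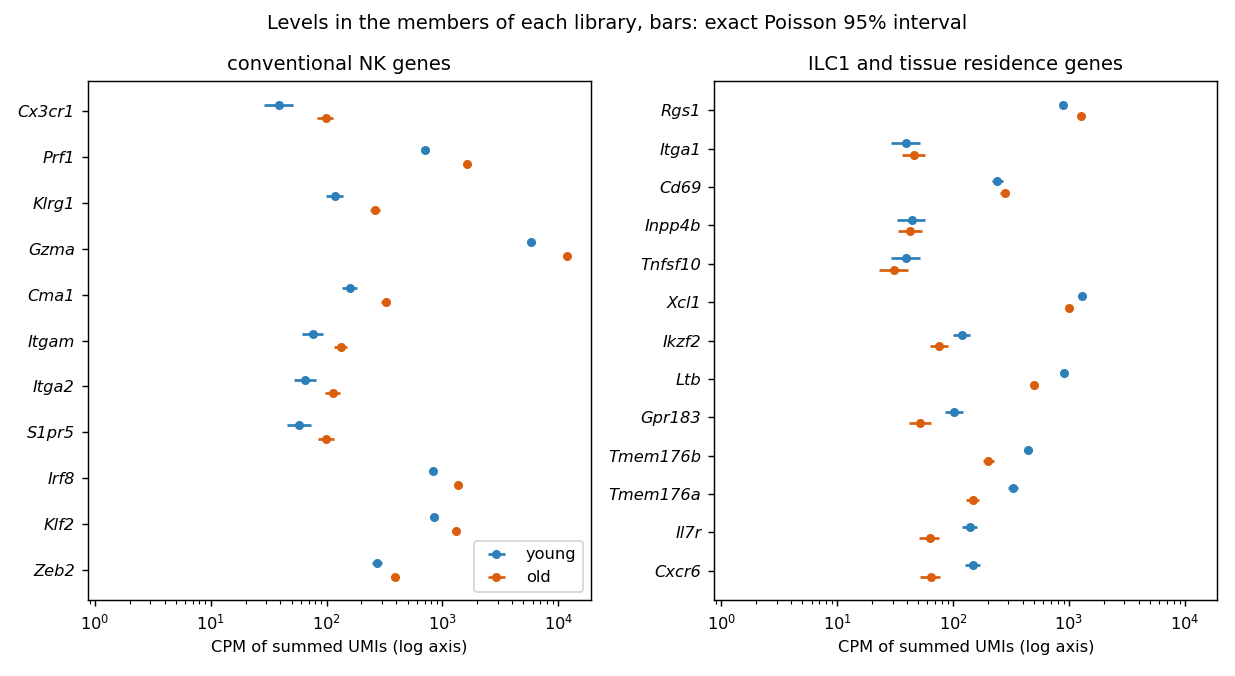
Level in all members (CPM, log axis) of 11 of the conventional NK genes and the 13 ILC1 and tissue residence genes that passed the filter, in the young and in the old library, each as 1 point with its exact Poisson 95% interval. The NK genes lie higher in the old library, while Cxcr6, Il7r, Ltb and Gpr183 lie lower and Itga1, Cd69 and Rgs1 do not.

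The lists were also compared within the sides, which were themselves cut by 9 of the NK and 7 of the ILC1 genes. On the NK side none of the 12 NK genes reached 2-fold and their median log2 ratio was 0.50, beside 1.74% of 3156 genes higher and 7.35% lower by 2-fold. On the ILC1 side none of the 10 ILC1 genes that passed reached 2-fold in either direction (median -0.11), while 1.68% of 1546 genes were higher and 1.23% lower. Of the ILC1 list 6 genes passed on the NK side, 1 higher by 2-fold and 2 lower, and their median of 0.77 was opposite in sign to the -0.64 over all members. Cxcr6 stood on the ILC1 side at 318 (young) and 272 (old) CPM, Ltb at 1933 and 1740. The NK genes measurable on the ILC1 side were 4, of which 2 were higher by 2-fold, and their median of 1.09 was above the 0.91 over all members. Levels in the whole class and the share on each side are the same measurement seen in different ways, and the number of ILC1-side cells and their RNA content both set the former.

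RNA of kidney epithelium differed between the member classes. The 8 PT marker genes held 1.27% of the UMIs of young and 0.477% of old members, with 19 and 9 members at 1% or more. Most of these young cells lay on the NK side, where 84 of 99 cells were under 1%, against 99 of 103 on the ILC1 side. Without the cells at 1% or more 184 young and 207 old members were left. The NK genes then had a median log2 ratio of 0.82, with 4 past 2-fold. The ILC1 genes had one of -0.93, with 6 lower by 2-fold. Over all 3738 genes that passed in these cells, 38 were higher and 77 lower by 2-fold. On the NK side the NK genes had a median of 0.20, 10 above 0 and 2 below. There 24 of 2532 genes were higher and 29 lower by 2-fold. These counts are the background for later ones without the cells rich in PT RNA. Of the 216 genes lower in old members by 2-fold, 180 (83.3%) had a level in PT cells at or above that in members, which held for 1418 (32.3%) of all genes that passed. Of the 55 higher genes 3 did.

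The genes of killing set the NK side apart. Gzma encodes granzyme A, Gzmb granzyme B and Prf1 perforin, which forms the pores through which granzymes enter a target. Gzma lies at chr13:113093825-113100981 on the minus strand of mm10 and Prf1 at chr10:61297833-61304680 on the plus strand. The stretch from 250 bases before to 50 after the start site is printed here for these genes, for Ncr1 as a rule marker carried by 98.0% and 99.5% of members, and for Xcl1 and Cxcr6 as genes of the ILC1 side. The sequences are those of RefSeq on GRCm38.p6, 5′ to 3′ on the strand of the gene. Capitals mark the letters AGGTGT, which T-box factors such as T-bet and Eomes bind, and TGTGGT, which RUNX factors bind, on either strand, so that ACACCT and ACCACA are the same letters read on the other strand.
Ncr1, chr7:4337465-4337764, plus strand: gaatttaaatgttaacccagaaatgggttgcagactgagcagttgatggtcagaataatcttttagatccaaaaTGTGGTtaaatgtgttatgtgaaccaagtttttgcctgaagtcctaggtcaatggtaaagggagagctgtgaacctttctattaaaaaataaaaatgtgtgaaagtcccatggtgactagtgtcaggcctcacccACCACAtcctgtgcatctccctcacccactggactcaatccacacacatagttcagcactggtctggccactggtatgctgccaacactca
Gzma, chr13:113100932-113101231, minus strand: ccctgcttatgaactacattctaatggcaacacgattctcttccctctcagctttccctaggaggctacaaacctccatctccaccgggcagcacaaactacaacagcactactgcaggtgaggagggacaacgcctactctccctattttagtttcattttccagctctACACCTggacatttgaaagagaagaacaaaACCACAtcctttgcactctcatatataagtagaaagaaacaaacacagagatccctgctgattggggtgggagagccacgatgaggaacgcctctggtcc
Prf1, chr10:61297586-61297885, plus strand: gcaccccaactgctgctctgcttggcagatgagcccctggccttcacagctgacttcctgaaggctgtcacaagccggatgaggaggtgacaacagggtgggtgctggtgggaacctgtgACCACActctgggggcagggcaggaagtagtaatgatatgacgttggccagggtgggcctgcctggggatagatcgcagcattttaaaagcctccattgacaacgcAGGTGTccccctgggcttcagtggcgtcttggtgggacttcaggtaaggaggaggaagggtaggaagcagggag
Xcl1, chr1:164935473-164935772, minus strand: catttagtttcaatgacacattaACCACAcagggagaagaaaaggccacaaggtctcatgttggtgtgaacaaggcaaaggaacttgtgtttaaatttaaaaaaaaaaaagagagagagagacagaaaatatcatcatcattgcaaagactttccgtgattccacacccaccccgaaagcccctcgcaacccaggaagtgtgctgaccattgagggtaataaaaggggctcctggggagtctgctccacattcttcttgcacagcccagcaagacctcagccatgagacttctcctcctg
Cxcr6, chr9:123806227-123806526, plus strand: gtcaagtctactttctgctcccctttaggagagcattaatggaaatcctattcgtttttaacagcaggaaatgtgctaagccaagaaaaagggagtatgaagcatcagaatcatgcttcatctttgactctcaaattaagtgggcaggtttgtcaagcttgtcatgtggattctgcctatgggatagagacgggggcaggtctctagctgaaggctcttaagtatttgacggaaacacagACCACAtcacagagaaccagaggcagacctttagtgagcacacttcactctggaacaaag

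Gzma and Prf1 held both sets of letters, with the T-box letters 80 and 24 bases before the start, and Ncr1, Xcl1 and Cxcr6 held the RUNX letters alone. Of all 32851 promoters of the same length in the RefSeq set 13.7% held the T-box letters, 16.8% the RUNX letters and 2.85% both. Of the 14 cytotoxic genes with a promoter there 5 held the T-box letters, 9 the RUNX letters and 4 both. Among 12 ILC1 genes these numbers were 2, 3 and 0. Among 10 conventional NK genes they were 2, 4 and 2, and the 2 with both were Gzma and Prf1. Among the 5 rule markers they were 0, 3 and 0. A match of letters is a description and not a bound site.

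Of 15 cytotoxic genes 11 passed the filter, and 4 were higher in old members by 2-fold, none lower, with a median log2 ratio of 0.47. Without the cells rich in PT RNA 2 of 10 were higher by 2-fold, on the NK side 0 of 10, and with 3 or more markers the log2 ratios of Gzma, Prf1 and Gzmb were 0.77, 0.98 and 0.76. Gzma stood at 5811 CPM (5678 to 5946) in young and 11957 (11790 to 12125) in old members. Prf1 stood at 713 (667 to 761) and 1625 (1564 to 1687), and Gzmb at 653 (609 to 699) and 1476 (1417 to 1535). The level of each of the 3 was thus about 2-fold in the old library (log2 ratios 1.04, 1.19 and 1.18), and Cst7, an inhibitor of granule proteases, differed alike (95.6 and 229 CPM, 1.26). Thinned to 1000 UMIs, 49.7% of young and 76.1% of old members had a Gzma UMI and 38.2% and 65.7% a Prf1 UMI, against at most 0.088% of PT cells. The death ligand genes differed less, with Fasl, whose receptor Fas is affected by the lpr mutation, at 130 and 150 CPM and Tnfsf10 at 39.0 and 31.0 CPM. Gzmc had 0 UMIs in young and 98 in old members, all of them in 2 cells.

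Both the makeup of the class and the levels on each side entered these ratios. On the NK side Gzma stood at 9919 CPM in young and 14882 in old cells, and without the cells rich in PT RNA the log2 ratio was 0.25 (0.21 to 0.29) for Gzma and 0.45 (0.33 to 0.57) for Prf1. On the ILC1 side the levels were far lower but the ratios larger. There Gzma stood at 693 and 1691 CPM (log2 ratio 1.29, 1.10 to 1.47), Prf1 at 170 and 431 CPM (1.34, 0.96 to 1.72), and Gzmb at 28.7 and 220 CPM (2.93, 2.15 to 3.81). Since the ILC1 side is a range of a score, NK cells with few NK UMIs may lie in it, and the part of such cells was not tested.

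Some genes that did not enter the split differed between its sides in both libraries alike. Over the genes that passed, 1.57% were higher on the NK side by 2-fold or more in both libraries and 1.89% lower. Gzma was higher on the NK side by 3.84 on the log2 scale in the young and 3.14 in the old library, Gzmb by 5.33 and 3.06, and Ccl5, a chemokine for T cells and monocytes, by 3.24 and 2.27. Klf2, a factor of circulating lymphocytes that drives exit genes, was higher by 2.58 and 2.33, and Prdm1 (Blimp-1), linked to NK maturation, by 2.11 and 2.77. On the ILC1 side Rora and Tcf7, factors of innate lymphoid development, were higher, with log2 ratios of NK over ILC1 side of -2.80 and -2.71 for Rora and -2.76 and -2.65 for Tcf7. The ILC1 side also held more Tnfsf10 (-3.16 and -2.94), Cxcr3 (-4.26 and -3.74), Cd226 (-2.61 and -2.42), Ikzf2 (-2.63 and -2.49) and Icos (-2.31 and -3.86). These genes were not used to place the cells, but they were named because they lay far apart between the sides in both libraries. Their shared direction is thus part of how they were chosen. Spp1 (3.11 and 2.85) and Cyr61 (2.55 and 2.60) also ranked high on the NK side. Both genes stood lower in the old library on each side. Spp1 was at 1631 (young) and 277 (old) CPM on the NK side and at 188 and 38.4 on the ILC1 side. Young members also held more RNA of PT marker genes, and the part of kidney epithelium RNA in these ratios was not tested.

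**Figure D3:**
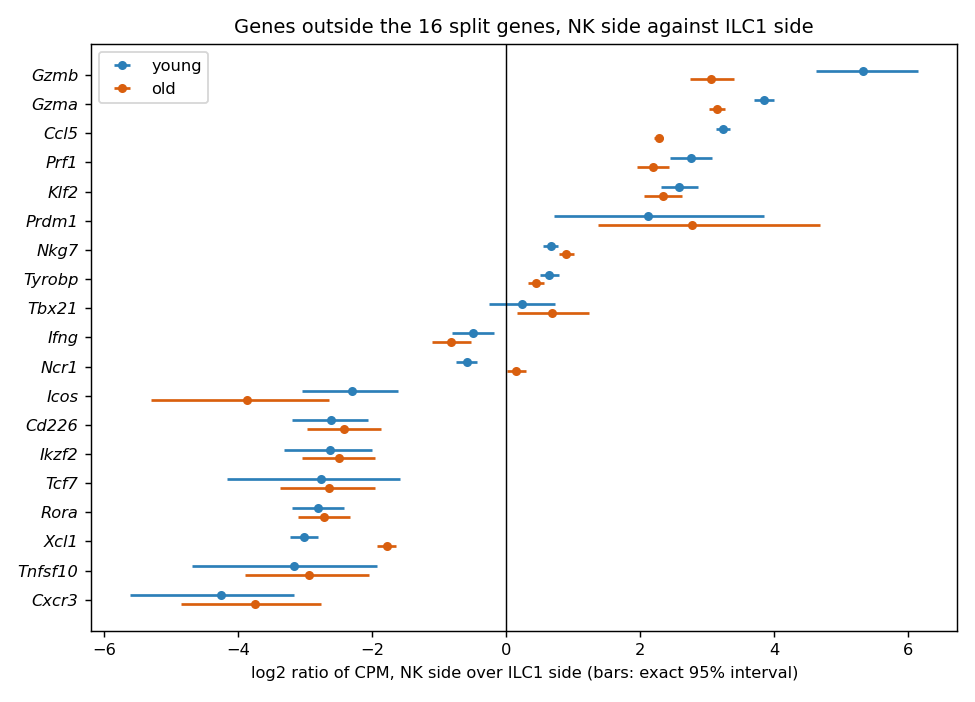
Log2 ratio of the level on the NK side over that on the ILC1 side (horizontal axis) for 19 genes outside the split (vertical axis), with young and old libraries as separate points and exact binomial 95% intervals. Gzma, Gzmb, Ccl5 and Prf1 lie to the right of 0 and Rora, Tcf7, Cxcr3 and Xcl1 to the left in both libraries.

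Eomes, a rule marker, followed the split in part. It had a UMI in 58.6% of young and 56.9% of old NK-side cells, and in 18.4% and 42.9% of ILC1-side cells. Tbx21 had one in 49.5% and 65.3% of NK-side and 40.8% and 49.0% of ILC1-side cells. Cells with an Eomes UMI numbered 78 in the young and 116 in the old library. Compared with the other members of their library, their log2 ratio was 0.83 (young) and 0.26 (old) for Gzma, -2.77 and -1.38 for Cxcr6, and -1.84 and -0.63 for Ltb. Xcl1 showed no common direction (-1.81 and 0.04). A cell without an Eomes UMI may still express the gene, since few of its transcripts were captured per cell.

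Among 18 transcription factor genes 16 passed the filter, and 1 was higher in old members by 2-fold and 1 lower. Prdm1 stood at 25.5 and 60.8 CPM (log2 ratio 1.26), and Rora at 356 CPM (324 to 391) and 153 (135 to 173), a log2 ratio of -1.22 that was -0.38 with 3 or more markers. Tbx21 stood at 122 and 145 CPM with an interval of the ratio that included 0 (-0.04 to 0.56). Irf8, needed for NK responses to virus, stood at 827 and 1350 CPM, and Ikzf2 (Helios) at 119 and 76.1.

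Activating receptors were little apart between the ages, with 12 of 13 genes passing, 0 higher and 1 lower by 2-fold, and a median log2 ratio of 0.24. Klrk1 (NKG2D), the receptor for stress-induced ligands, stood at 551 CPM in young and 652 in old members. Cd226 (DNAM-1), which binds nectin family ligands, was the gene past 2-fold, at 155 CPM (134 to 178) and 73.6 (61.1 to 88.0). Its log2 ratio was -1.07 over all members, 0.069 among cells with Xist UMIs and no Y-linked UMIs, and -0.34 and -0.53 within the NK and the ILC1 side. With 3 or more markers it was -0.38. Cd7 stood at 622 and 534 CPM and Cd244 (2B4) at 129 and 184.

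Of 17 inhibitory receptor genes 8 passed, and Klrg1 and Klra3 (Ly49C) were higher by 2-fold, or 1 gene without the cells rich in PT RNA. Klra3 stood at 173 CPM (151 to 197) and 374 (345 to 404), and on the ILC1 side at 19.7 and 151 CPM. Klrd1 stood at 744 and 986 CPM and its partner Klrc1 (NKG2A) at 223 and 233. Reads were aligned to the mm10 reference, and Klra genes are near-identical copies that vary between strains, so their single values are uncertain. Lag3, a checkpoint receptor below the filter, had 7 UMIs in young and 53 in old members.

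All 14 genes of receptor adaptors and kinases passed and had a ratio above 0, with a median of 0.58, and 1 reached 2-fold. Of all 4394 genes that passed, 1948 were above 0. Without the cells rich in PT RNA 13 of the 14 were above 0 and 1 below, with a median of 0.44. On the NK side without those cells all 13 that passed were above 0, with a median of 0.26. Tyrobp stood at 1416 CPM (1351 to 1484) and 2281 (2208 to 2355), Fcer1g at 1083 and 1357, and Cd247 (CD3ζ) at 63.7 and 117. Plcg2, the phospholipase below these receptors, was past 2-fold at 24.7 (16.8 to 35.0) and 62.7 CPM (51.2 to 76.0). The kinase Syk stood at 39.8 and 77.3 CPM.

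Of 16 genes of secreted cytokines and chemokines 10 passed, 2 were higher in old members by 2-fold and 0 lower, with 6 above 0 and 4 below. Without the cells rich in PT RNA 1 was higher and 1 lower of 9. Ccl5 stood at 8122 CPM (7966 to 8282) and 17678 (17475 to 17882), and Ccl3 at 892 (841 to 946) and 1788 (1724 to 1854). Ccl4 stood at 2334 and 3821 CPM (0.71). Ifng, the main effector cytokine of both cell kinds, stood at 269 CPM (241 to 299) and 270 (245 to 296), and the interval of its log2 ratio ran from -0.21 to 0.21, so no difference was detectable at this depth. Tnf stood at 36.6 and 34.7 CPM and Tgfb1 at 172 and 237. Xcl1, which attracts cross-presenting dendritic cells, stood at 1308 and 1005 CPM in all members, at 2550 and 2242 on the ILC1 side and at 316 and 653 on the NK side. Its log2 ratio of old over young was -0.38 over all members and 0.81 with 3 or more markers.

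Of 18 cytokine receptor genes 12 passed, 0 were higher by 2-fold and Il7r was lower. Il2rb stood at 781 and 818 CPM and Il12rb2, a chain of the IL-12 receptor, at 54.2 and 98.6. Il18r1, a chain of the IL-18 receptor, stood at 215 CPM (190 to 242) and 126 (109 to 144), with 345 and 178 on the ILC1 side. Among 22 genes of migration and adhesion 19 passed, 2 were higher by 2-fold, among them Cx3cr1, and Cxcr3 and Cxcr6 were lower. Cxcr3, a receptor for interferon-induced chemokines, stood at 90.8 and 32.2 CPM (log2 ratio -1.49), and its ratio was -0.19 with 3 or more markers and -0.16 among cells with Xist UMIs and no Y-linked UMIs. The integrin chains Itga4 and Itgb7 stood at 215 and 367 CPM and at 181 and 190 CPM.

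MHC class I genes, whose products are both the ligands of NK inhibitory receptors and carried by NK cells themselves, were higher in old members without exception among the 11 of 13 that passed. Their median log2 ratio was 0.68, or 0.49 with 9 above 0 and 2 below without the cells rich in PT RNA, and H2-Q4 alone reached 2-fold (98.8 and 219 CPM, 1.15). H2-K1, at chr17:33996017-34000347 on the minus strand, stood at 2049 CPM (1971 to 2130) in young and 3539 (3448 to 3631) in old members. B2m, the light chain of class I molecules, stood at 2075 and 3327 CPM, and Tap1, a peptide transporter, at 43.8 and 77.9. Unlike the NK genes, the difference was as large within the NK side, where H2-K1 stood at 1276 and 3288 CPM, 1679 and 3491 without the cells rich in PT RNA (log2 ratio 1.06, 0.95 to 1.17). On the ILC1 side it stood at 3020 and 4421 CPM (0.55, 0.45 to 0.65).

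The 13 genes of the list were all higher in the old library in each other cell class compared. H2-K1 stood at 1824 CPM in young and 2845 in old CD3-positive cells without coreceptor, at 2270 and 3873 in CD8 T cells, at 1303 and 4163 in ILC2 cells and at 25.2 and 562 in PT cells. Psmb8, an immunoproteasome subunit, stood at 383 and 557 CPM in members and at 1.91 and 230 in PT cells. The difference in these genes was therefore not particular to the members. Interferon-stimulated genes were sparse, as 9 of 24 passed with a median of 0.45, and Isg15, a ubiquitin-like protein, was past 2-fold at 23.9 and 69.4 CPM, with 10.8 and 140 CPM on the ILC1 side. This rested on few cells, since without those rich in PT RNA its log2 ratio was 0.70 in place of 1.54, its ILC1-side levels were 11.9 and 31.3 CPM, and 0 of the 9 genes reached 2-fold. With 3 or more markers the ratio was 0.58.

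**Figure D4:**
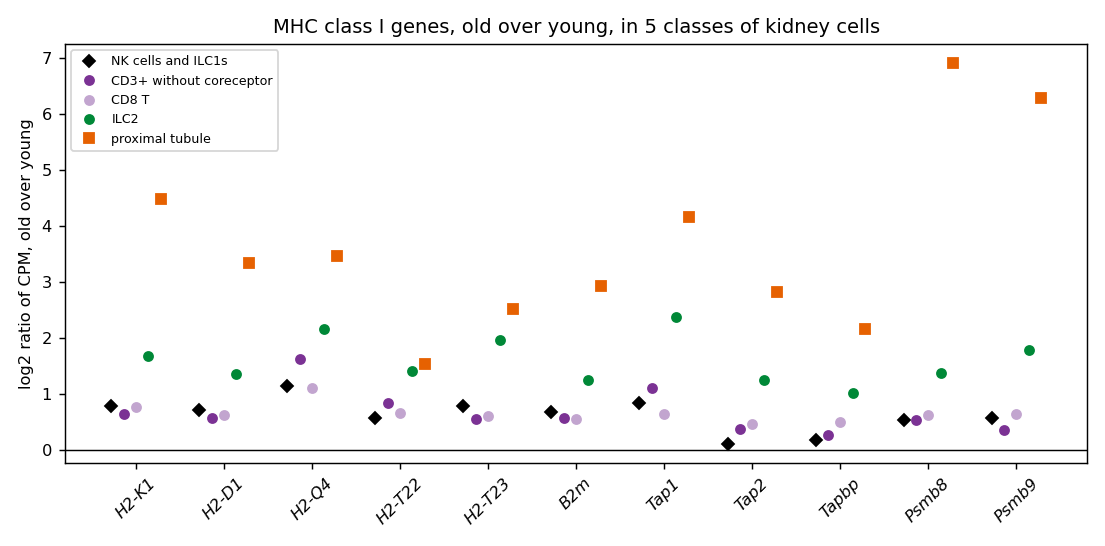
Log2 ratio of the old over the young library (vertical axis) for the 11 MHC class I genes that passed (horizontal axis), with 1 point each for members, CD3-positive cells without coreceptor, CD8 T cells, ILC2 cells and proximal tubule cells, without intervals. All points lie above 0, those of the members with a median of 0.68, and the proximal tubule points lie highest for each gene.

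Cell cycle genes were read both as levels and as shares of cells. Of 15 cell cycle genes 9 passed, 0 reached 2-fold in either direction and the median log2 ratio was 0.02. Without the cells rich in PT RNA 2 of 9 were lower by 2-fold and 6 were below 0 (median -0.16), and on the NK side all 6 that passed were then below 0, 1 of them by 2-fold. Cells with UMIs of at least 2 cell cycle genes were 6.40% of young and 6.48% of old members, with 9.09% and 7.78% on the NK side and 3.88% and 2.04% on the ILC1 side. In CD8 T cells the shares were 7.69% and 7.36%. Immediate early and heat shock genes, which respond to tissue dissociation, all passed (17 of 17). Over all members 0 were past 2-fold, 12 were below 0 and the median was -0.35. On the NK side 1 was lower by 2-fold, or 2 without the cells rich in PT RNA, and 0 were higher. Hsph1, a heat shock gene outside the list, was lower over all members at 140 and 48.7 CPM (log2 ratio -1.53). On the NK side Hsph1 (-1.52), Hspa1a (-1.22) and Dnaja1 (-1.06) were lower by 2-fold. Fos stood at 1190 and 936 CPM and Hspa8 at 1973 and 1519.

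Set against the other lymphocytes of the same libraries, members stood out in receptors and granule genes. The classes compared were CD3-positive cells without Cd4, Cd8a, Cd8b1 or Trdc UMIs (183 young, 1707 old), CD8 T cells (195 and 1223) and ILC2 cells (1499 and 322), each chosen by genes. Of the genes that passed, 91 (2.07%) were higher in members by 2-fold or more than in all 3 classes in both libraries. Among them were 3 of the 5 genes that chose the members. The 91 genes included 6 of 12 activating receptor genes, 5 of 8 inhibitory receptor genes, 6 of 14 adaptor genes, 5 of 11 cytotoxic genes and 3 of 16 transcription factor genes (Tbx21, Zeb2 and Irf8). Of the ILC1 list Xcl1 was the 1 gene of 13. Tyrobp stood at 159 and 72.9 CPM in CD3-positive cells without coreceptor and at 54.6 and 115 CPM in ILC2 cells. Eomes was not among the 91, since old CD3-positive cells without coreceptor had 368 CPM against 162 in old members. Cma1 led the ranking with a smallest log2 ratio of 6.22, followed by Serpinb9b, a protease inhibitor, with 5.92, and the lectin-like receptors Klrb1f, Klrb1a and Klri2. Serpinb9b stood on the NK side at 224 and 328 CPM, against 8.97 and 0 CPM on the ILC1 side.

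**Figure D5:**
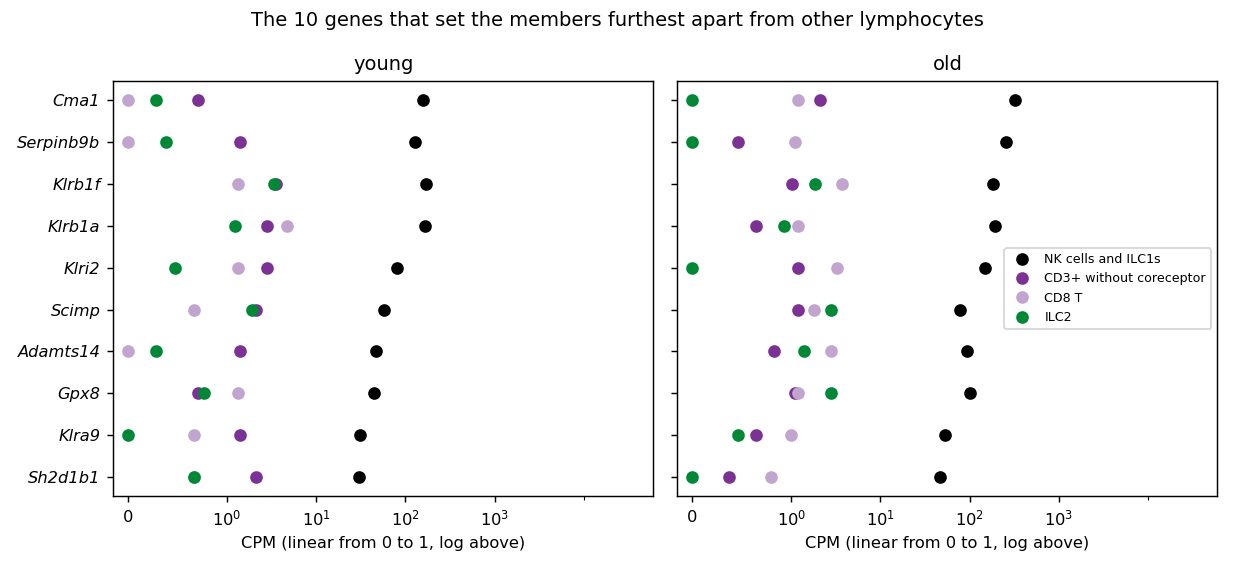
Level (CPM, horizontal axis, linear near 0 and logarithmic above) of the 10 genes with the largest smallest ratio of members over the other lymphocyte classes (vertical axis), in members, CD3-positive cells without coreceptor, CD8 T cells and ILC2 cells, with 1 panel per library and no intervals. Members lie to the right of the other classes for each gene, with Cma1 at 158 (young) and 323 (old) CPM.

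The ends of the ranking of old over young held genes of single cells or of other tissue. At the lower end the 253 young UMIs of Sprr1a lay in 1 cell, and nearly all young UMIs of Psca, Upk3a, Fam25c and Nupr1 likewise lay in 1 cell for each gene, while Krt8, Dnase1, Ak4, Hbegf and Fmo5 had higher levels in PT cells. At the upper end the basophil proteases Mcpt8 (451 UMIs) and Prss34 (277) came from 1 old cell. Ccl9, a myeloid chemokine, was carried more widely, with 7 UMIs in young members and 171 in 20 old cells. The other genes there were Lyz2, Ccl6, Plac8, Alox5ap, Ifitm3, Phactr3 and Hes1. Asking for at least 10 cells with a UMI, no cell over 25% of the UMIs, and a level above that in PT cells left 40 higher and 29 lower genes. Of these Icos, a costimulatory receptor, had the lowest ratio (86.8 and 21.9 CPM, -1.99), and Hes1, a target of Notch, stood at 17.5 and 70.6 CPM.

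Markers of other lineages were present among the members, and their part in the results was not tested. The summed macrophage and monocyte list stood at 463 CPM in young and 1035 in old members, with 28.6% of the old UMIs in 1 cell and all 8 genes detected in both libraries. It includes Ly6c2, which was not counted as a gene of another lineage when members were removed. The plasma cell list stood at 152 and 279 CPM, with UMIs in 56 young and 147 old cells, and against 1836 CPM in old PT cells. The ILC2 list, at 558 and 284 CPM, was lower in old members as were Il7r and Rora, the latter a gene of that list. The B cell list had 60 UMIs in young members, 52 of them in 1 cell, and the basophil list 484 UMIs in old members, all in 1 cell.

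The study's methods name female mice unless stated otherwise, but both libraries held cells with Y-linked UMIs. Of young members 109 had Y-linked UMIs and no Xist UMI and 24 the reverse, and of old members 95 and 67. Cells with Xist alone were thus 11.8% of young and 31.0% of old members, and Xist stood at 138 and 406 CPM. A ratio over all members therefore carries both age and this makeup, and the part of each was not tested. The NK side held 43.1% of young and 77.9% of old cells with Y-linked UMIs alone, and 58.3% (14 of 24) and 71.6% (48 of 67) of those with Xist alone. Between the ages the log2 ratio in the former and the latter was 1.44 and 0.59 for Gzma, 1.71 and 0.45 for Ccl5, -1.81 and -0.76 for Cxcr6, and 0.83 and 0.86 for H2-K1. The direction was the same in both for these 4 genes, whereas Tyrobp stood at 0.97 and 0.02.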

How the data were processed

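The measurement was 10x Chromium 3′ v3.1 single-cell RNA-seq of 1 library of pooled kidneys from young and 1 from old MRL-lpr mice. The deposited values are UMI counts, which Cell Ranger 3.1.0 gave the authors from reads aligned to mm10 (version per the file headers). The matrices hold 31053 genes and were not normalized, and their barcodes exceeded the number of sorted cells that the study states. Groups came from the age label. Members and gene lists were chosen with earlier results of these data known.

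A gene's UMIs were added up within each class of cells and scaled to 1000000 (CPM), with exact Poisson intervals for levels, exact binomial intervals for log2 ratios and exact Clopper-Pearson intervals for shares, at 95%. These cover counting error only, and a count of 0 was given a limit of 3 counts. Genes were ranked with at least 100 UMIs over the members, and called past 2-fold. Levels are per captured 3′ end and were not compared between genes. Cells were thinned to 1000 UMIs (seed 7), leaving out 4 young and 3 old shallower members. PT cells had UMIs of at least 3 of 5 PT genes and no Ptprc UMI. CD3-positive cells had at least 2 of Cd3d, Cd3e and Trac, and ILC2 cells had 2 or more of Gata3, Il2ra, Il1rl1 and Il17rb and no CD3 UMI. The genes named were those of the lists, the 10 at each end of the ranking, the 10 leading over other lymphocytes and, chosen after their values were seen, genes of the split and of the ends under a stricter filter. The ratio step was tested on simulated data with known answers. Alternatives changed the markers, the genes excluded, the filters, doublets, the total, the mean, the scaling, the count minimum and the thinning depth, or took cells by sex-linked UMIs. The split, the removal of cells rich in PT RNA and the stricter filter were added after the data were seen.

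Positions are those of the GENCODE M21 annotation of GRCm38 (303 of 303 genes of the lists matched), and promoters from RefSeq. Scrublet was run through Scanpy 1.11.5. Tables were handled in pandas 2.3.3 and arrays in NumPy 2.4.6, intervals came from SciPy 1.17.1, and plots from Matplotlib 3.10.9, all under Python 3.11.15. Some genes of the lists are counted in them but not reported here. Other measurements of the study were not analysed here.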

Additional observations from a re-analysis of the deposited data

Results flagged for a closer look

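Some genes had opposite directions between the ages in parts of the member class, and the difference between those parts was not tested. Fcgr3, the Fc receptor CD16, had a log2 ratio of old over young of 1.10 among cells with Y-linked UMIs and -2.04 among cells with Xist UMIs. Igkc, an antibody light chain that free RNA of plasma cells can bring, had 7.55 and -2.25, and Ier5l had -2.37 and 1.66. Between the sides, Ly6a (Sca-1), an interferon-responsive surface protein, had -1.86 on the NK side and 2.55 on the ILC1 side. Kap, a gene of proximal tubule cells, had -3.45 on the NK side and 1.18 on the ILC1 side.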

How the results depend on the processing

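No paired analysis was possible because there was 1 library per age and no test, and for the same reason no replicate could be left out. Of the values recomputed for shares and gene counts 60 stayed within their counting interval or within 1.5 times the main count and 32 moved, and of those for single genes 222 stayed, 113 moved and 4 reversed. The share of members was 0.787% (young) and 1.59% (old) with 3 or more markers, and 0.192% and 0.186% without Cd3g, Trbc1 or Trbc2 UMIs. It was 0.962% and 1.05% without members that had 2 or more UMIs of chosen genes of other lineages, PT genes among them. In the young library it was 1.47% without Cd3g UMIs, 2.06% with at most 10% mitochondrial UMIs and 1.44% among cells with Xist UMIs. The NK side held 78.9% and 84.0% with 3 or more markers, 72.7% and 89.5% without Cd3g, Trbc1 or Trbc2 UMIs, and 58.3% of young cells with Xist UMIs. Without Cd3g, Trbc1 or Trbc2 UMIs, 14 genes were higher and 4 lower in old members by 2-fold, of 228. Without members that had 2 or more UMIs of other lineages the numbers were 21 and 33 of 1812. With Xist UMIs they were 17 and 20 of 944. With at least 50 UMIs per gene they were 128 and 408 of 6630, and with at least 200 they were 25 and 93 of 2389. The lower genes numbered 77 of 3738 without members rich in PT RNA and 29 under the stricter filter. Fewer genes passed in the smaller classes, and for the rest the cause was not tested. Thinned to 500 UMIs, Prf1 UMIs were in 27.6% (young) and 46.8% (old) of members and Cxcr6 UMIs in 8.87% of young ones, and thinned to 2000 UMIs these were 50.3%, 79.2% and 25.6%. Asking for 3 or more markers also took Cxcr3 (-0.19), Rora (-0.38), Cd226 (-0.38), Isg15 (0.58), Gzma (0.77), Prf1 (0.98), Gzmb (0.76) and Ccl5 (0.97) below 2-fold. The reversed log2 ratios were those of Cxcr6 (0.43), Il7r (0.45) and Cd200r1 (0.38) with 3 or more markers and of Cd226 (0.069) with Xist UMIs. Only ratios past 2-fold over all members could count as reversed. Smaller ones also changed sign, such as Ltb (0.17) and Xcl1 (0.81) with 3 or more markers, which were counted as moved.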
